A study of Mus musculus with 4 samples.

Results

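The genes described here build the machinery that copies DNA and supply its nucleotides, together with 4 regulators of the entry into S phase. They were 45 genes listed by symbol, and 44 of them had an array feature (a transcript cluster) that carries that gene alone. Mcm7 had none, because its cluster also lists 2 microRNA genes, so no level is given for it. Of the 44, 43 had a mean level over the arrays at or above 5.24, the median of all clusters and the floor used here, out of 17195 genes of the series that passed it. The other member, Fen1, lay at 5.17 to 5.24 on the 4 arrays, where a difference could hardly show.

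Mouse marrow RNA was hybridised to 4 Affymetrix arrays, 1 for each of 4 groups: astragalus (the labels give Astragalus membranaceus, a root of Chinese medicine), electro-acupuncture, cisplatin (a DNA-crosslinking platinum agent) and control. Marrow was spun from tibias after 2 weeks of treatment, and the design text speaks of 6 mixed marrow samples without saying whether that is per group. The labels used here do not state strain, sex, age, doses, what the control mice received, or whether astragalus or electro-acupuncture mice also received cisplatin. Each of these 2 groups is therefore set against both other arrays. With 1 array per group no difference has a replicate check, no test was run, and precision is limited by how few arrays there are. Levels are log2 signals as deposited, and a level of one gene is not set against that of another.

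Replication starts in G1, when the origin recognition complex, Cdc6 and Cdt1 load the ring-shaped MCM helicase onto DNA. In S phase Cdc45 and the GINS complex join the MCM ring to form the active helicase, primase and DNA polymerases copy the strands, and ribonucleotide reductase makes the deoxynucleotides. Transcription factors of the E2F family drive many of these genes as cells leave G1, and in marrow the dividing cells are mostly precursors of red cells, granulocytes and lymphocytes.

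Promoter windows of 6 members, placed by annotated starts, are shown because E2F factors act at promoters and because the members' levels differed in how far they spread over the arrays. Promoter sequences were those of RefSeq on GRCm38.p6, of which 37 of the 45 members had at least 1 (Mcm4, Gins1, Gins2, Gins4, Rfc2, Prim2, Pole and Ccne2 had no entry). The first 4 below had the largest ranges among members with an entry, and the last 2 the smallest among those above the floor. Each is the 250 bases before the annotated start, 5′ to 3′ on the gene's strand, with matches to the E2F core in capitals. The core was searched as TTCCCGC, also as TTGGCGC, then as TTCGCGC, and lastly as TTGCCGC, on both strands. Rrm2 lies at chr12:24708004-24708253 (plus strand), Rrm1 at chr7:102441445-102441694 (plus), Mcm2 at chr6:88898781-88899030 (minus), Mcm6 at chr1:128359706-128359955 (minus), E2f1 at chr2:154569427-154569676 (minus) and Pola2 at chr19:5964207-5964456 (minus).
Rrm2: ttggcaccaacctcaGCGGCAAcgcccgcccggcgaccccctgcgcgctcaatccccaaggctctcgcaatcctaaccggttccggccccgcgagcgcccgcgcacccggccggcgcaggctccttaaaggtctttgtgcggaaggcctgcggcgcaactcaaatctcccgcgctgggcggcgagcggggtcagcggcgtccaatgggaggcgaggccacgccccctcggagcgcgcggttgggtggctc
Rrm1: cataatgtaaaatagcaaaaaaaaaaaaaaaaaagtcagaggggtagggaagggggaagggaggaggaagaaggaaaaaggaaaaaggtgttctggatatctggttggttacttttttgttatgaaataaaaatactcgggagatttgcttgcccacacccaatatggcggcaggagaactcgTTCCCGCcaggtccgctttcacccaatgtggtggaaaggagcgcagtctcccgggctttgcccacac
Mcm2: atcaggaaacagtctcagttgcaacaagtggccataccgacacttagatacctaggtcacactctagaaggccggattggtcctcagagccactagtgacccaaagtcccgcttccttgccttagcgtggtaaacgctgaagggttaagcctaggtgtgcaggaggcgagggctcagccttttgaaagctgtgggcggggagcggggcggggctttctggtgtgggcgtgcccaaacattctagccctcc
Mcm6: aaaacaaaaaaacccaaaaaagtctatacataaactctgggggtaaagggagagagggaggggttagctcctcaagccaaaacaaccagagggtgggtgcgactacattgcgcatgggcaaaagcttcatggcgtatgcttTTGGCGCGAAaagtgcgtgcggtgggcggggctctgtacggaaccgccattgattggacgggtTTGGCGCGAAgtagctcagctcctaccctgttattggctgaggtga
E2f1: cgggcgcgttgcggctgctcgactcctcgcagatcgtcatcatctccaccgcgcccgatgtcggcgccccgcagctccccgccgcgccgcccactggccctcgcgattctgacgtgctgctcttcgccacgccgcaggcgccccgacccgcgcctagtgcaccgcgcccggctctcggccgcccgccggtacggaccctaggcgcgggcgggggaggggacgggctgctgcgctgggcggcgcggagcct
Pola2: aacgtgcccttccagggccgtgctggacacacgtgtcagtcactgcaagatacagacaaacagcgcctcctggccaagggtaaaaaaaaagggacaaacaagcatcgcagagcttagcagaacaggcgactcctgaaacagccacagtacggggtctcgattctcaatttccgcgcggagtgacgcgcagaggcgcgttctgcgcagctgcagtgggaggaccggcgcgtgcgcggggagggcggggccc

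Mcm6 had 4 matches to the E2F core before its start, in overlapping pairs that begin 109 and 46 bases before it, and 1 more after the start. Rrm1 had 1 match, 67 bases before its start, and Rrm2 had 1 at 235 bases. Mcm2, E2f1 and Pola2 had none in this window, which says only that these letters are not there. The E2f1 window can be read in 1 frame without a stop codon, so it may be coding sequence and not the gene's promoter. Other starts of E2f1 were not searched, and it is counted below among the members without the core. Over windows of 300 bases, from 250 before to 50 after the start, 26 of 44 member entries (59.1%) held the core, against 9.57% of all 32851 entries. The CCAAT box, searched as CCAAT, was in 59.1% of member entries and 37.4% of all, and the Sp1 box, GGGCGG, in 70.5% and 35.7%. The CHR core of mitotic genes, TTTGAA, was in 11.4% of member entries and 17.9% of all. No CCAAT match overlapped an E2F match in the windows of the 6 members shown. Among members above the floor, the 21 with the E2F core had a median log2 difference between astragalus and cisplatin of 0.58 (-0.25 to 1.11), and the 14 without it 0.45 (-0.07 to 0.84), so the ranges overlapped widely.

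Taken as a group and as deposited, the members were higher on the astragalus array than on the other 3 and nearly level between cisplatin and control. The counts of highest and lowest arrays and of orders below are as deposited and were not made trend-subtracted (a scaling explained in the next paragraph). Of the 43 members above the floor, 35 had their highest level on the astragalus array, against 34.5% of all genes compared, and none had its lowest there (20.1% of all genes). The lowest level was on the cisplatin array for 19 members (21.2% of all genes), on the control array for 15 (32.5%) and on the electro-acupuncture array for 8 (23.2%), and Rpa3 had 2 equal lowest values. In 14 members the order was astragalus, electro-acupuncture, control, cisplatin, an order seen in 4.66% of all genes, and in another 14 cisplatin and control changed places, as in 11.5% of all genes. The median range over the 4 arrays was 0.58 for members and 0.44 for all genes, and the widest member, Rrm2, spanned 1.12.

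A property of the arrays bears on all astragalus values. The astragalus array spread more widely, with 7.20 log2 units between the 5th and 95th percentile of all clusters against 6.80 on the electro-acupuncture, 6.83 on the cisplatin and 6.81 on the control array, and genes at higher levels tended to be higher on it. The part of this spread in the members' differences was not tested beyond the values given here. A lowess curve of the difference on level, fitted over all genes compared, stood at a median of 0.27 at the members' levels for astragalus minus cisplatin and 0.27 for astragalus minus control. For the comparisons of cisplatin or electro-acupuncture with control or with each other it stood between 0.01 and 0.03. Values with this curve subtracted are given beside the astragalus results as "trend-subtracted".

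**Figure D1:**
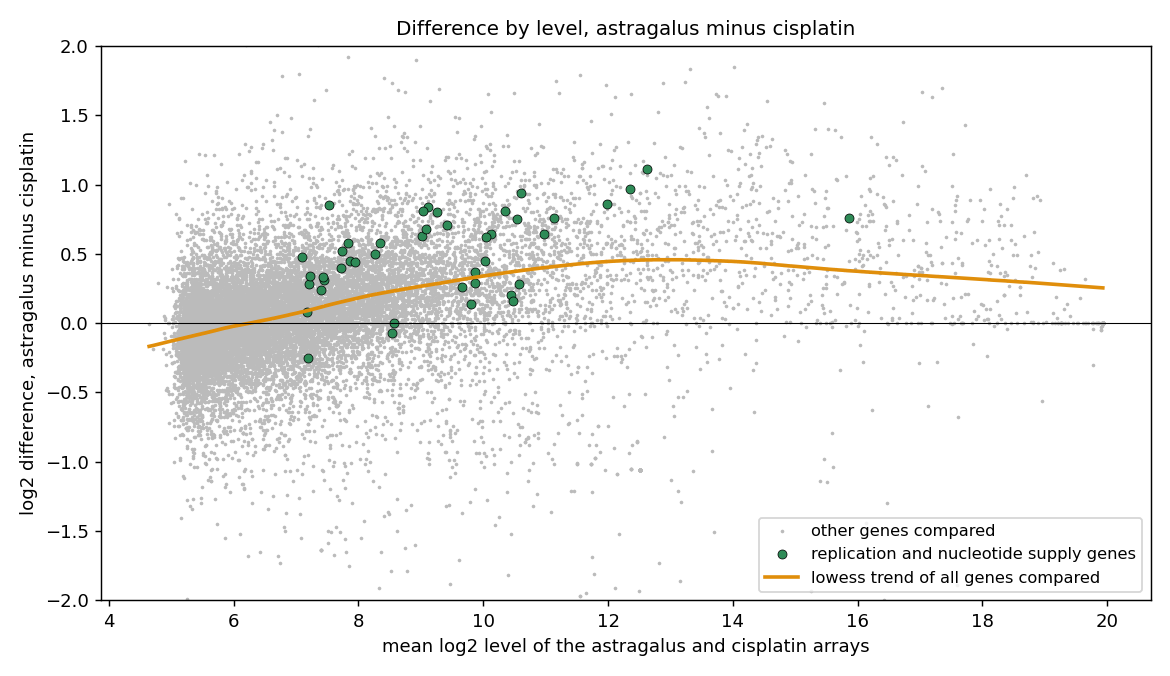
Log2 difference astragalus minus cisplatin (y axis) against the mean log2 level of both arrays (x axis) for all genes compared (grey), members above the floor (green) and the lowess curve of all genes (orange). Members lie between -0.25 and 1.11, with a median of 0.50, while the curve at their levels has a median of 0.27. Genes beyond 2 log2 units, 106 in all, are outside the plotted range.

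In astragalus against cisplatin, 40 of 43 members were higher, 2 were lower (Pold1 and Pola2) and Rpa3 was equal, against 56.8% of all genes higher. The median log2 difference was 0.50, or 1.41-fold, with quartiles of 0.29 and 0.76, and the median of all genes was 0.06. At least 1.5-fold higher were 18 members (41.9%), against 9.37% of all genes, and no member was 1.5-fold lower (5.01% of all genes). Trend-subtracted, 33 members were higher (49.6% of all genes), the median was 0.28, and 2 members (Rpa2 and Rrm1) were at least 1.5-fold higher, a share close to the 4.4% of all genes under the same setting.

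In astragalus against control, 37 of 43 members were higher and 6 lower, with a median of 0.52 (1.43-fold) against 0.05 for all genes, of which 55.3% were higher. At least 1.5-fold higher were 16 members, 37.2% against 14.4% of all genes, and no member was 1.5-fold lower (6.68% of all genes). Trend-subtracted, 30 members were higher (49.2% of all genes) and the median was 0.19. At least 1.5-fold higher were then 5 members (Mcm2, Rpa2, Cdt1, Rrm2 and Mcm4), against 9.47% of all genes. Both comparisons share the astragalus array, so they are not independent of each other.

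Electro-acupuncture differed less. Against cisplatin 34 of 43 members were higher, with a median of 0.17 (1.13-fold), and against control 30 were higher, with a median of 0.16 (1.12-fold). The medians of all genes were 0.02 and 0.04, and 52.5% and 53.7% of all genes were higher. Mcm4 and Mcm6 passed 1.5-fold against cisplatin (6.04% of all genes did) and Mcm4 alone against control (11.2% of all genes), so the shares of members past that size were below those of all genes. No member was 1.5-fold lower in either, against 5.27% and 6.85% of all genes. Trend-subtracted, 33 members were higher than in cisplatin and 29 than in control (48.4% and 48.6% of all genes), with medians of 0.16 and 0.12. The same counts for astragalus were 33 and 30. No member was then 1.5-fold higher with electro-acupuncture, against 5.15% and 9.51% of all genes.

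Cisplatin and control were nearly level. Of 43 members 16 were higher, 25 lower and 2 equal on the cisplatin array (50.6% of all genes were higher), with a median of -0.02 and values from -0.40 (Pola1) to 0.28 (Gins4). None reached 1.5-fold in either direction, while 7.09% of all genes were at least 1.5-fold higher and 4.27% at least 1.5-fold lower. In astragalus against electro-acupuncture, 41 members were higher (57.5% of all genes) with a median of 0.31, of which 0.06 was left trend-subtracted. Past 1.5-fold were Rrm2, Rpa2, Prim2 and Tk1 (5.68% of all genes), and no member was 1.5-fold lower (4.18% of all genes). Trend-subtracted, no member was 1.5-fold higher, against 2.34% of all genes.

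**Figure D2:**
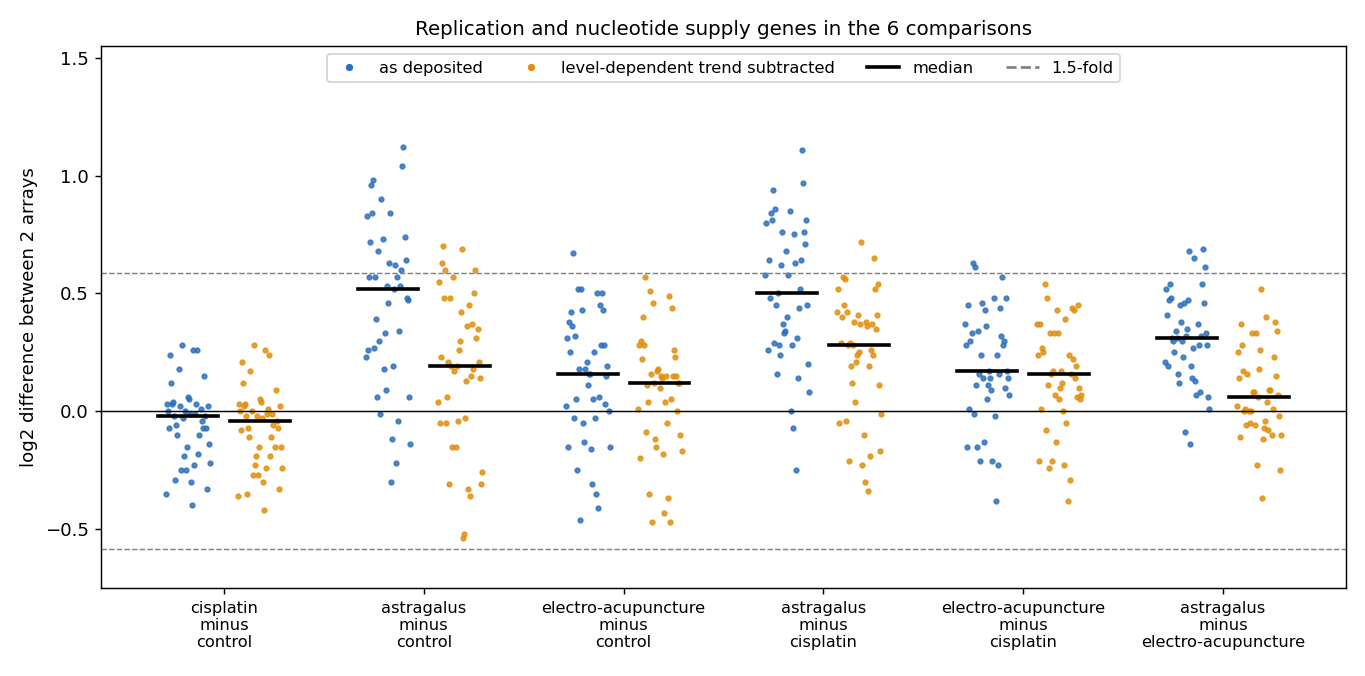
Log2 differences of the 43 members above the floor (points) in the 6 comparisons (x axis), as deposited (blue) and with the level-dependent trend subtracted (orange). Black bars are medians and dashed lines mark 1.5-fold. The astragalus medians of 0.52, 0.50 and 0.31 become 0.19, 0.28 and 0.06 trend-subtracted, and the cisplatin minus control median stays near 0.

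**Figure D3:**
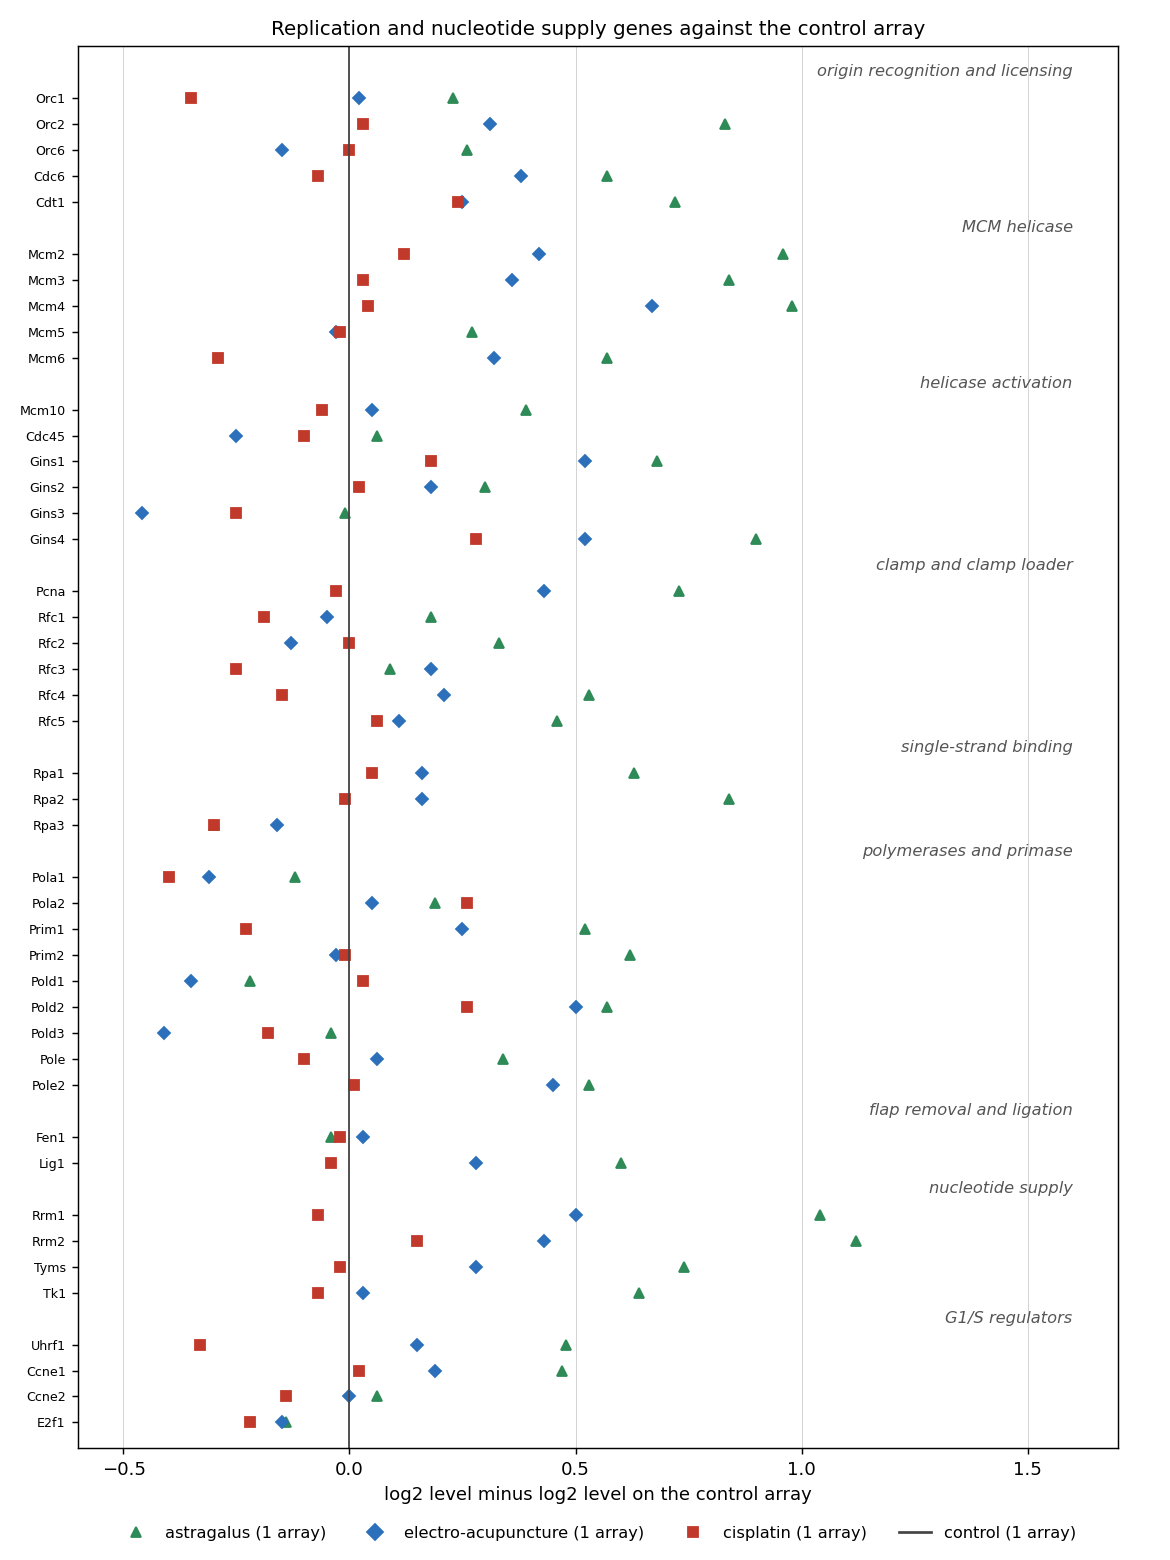
Log2 level of each of the 44 members with a cluster of its own, minus its level on the control array (x axis), by role (y axis), for astragalus (triangles), electro-acupuncture (diamonds), cisplatin (squares) and control (line at 0), 1 array each. Rrm2 and Rrm1 lie farthest right on the astragalus array, at 1.12 and 1.04, and Gins3 farthest left on the electro-acupuncture array, at -0.46. The astragalus point of Rpa3 lies under its cisplatin point, both at -0.30.

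Ribonucleotide reductase and thymidylate enzymes showed the widest spread among the roles as deposited. Trend-subtracted, their median in astragalus against control (0.42) was below that of the MCM helicase genes (0.48). Rrm1, the large subunit of ribonucleotide reductase, was at 13.18 on the astragalus, 12.64 on the electro-acupuncture, 12.07 on the cisplatin and 12.14 on the control array. Rrm2, the small subunit whose supply limits the enzyme in S phase, was at 12.83, 12.14, 11.86 and 11.71 on the same arrays in that order. They were the members that passed 2-fold in any comparison: Rrm1 was 2.16-fold higher in astragalus than in cisplatin (2% of all genes were at least 2-fold higher), and Rrm2 and Rrm1 were 2.17-fold and 2.06-fold higher in astragalus than in control (6.13% of all genes). Tyms, which makes thymidylate, was at 11.52 (astragalus), 11.06 (electro-acupuncture), 10.76 (cisplatin) and 10.78 (control). Tk1, the salvage kinase of thymidine, was at 9.77, 9.16, 9.06 and 9.13 on the arrays in the same order, so only astragalus stood clear of the rest. As deposited, all 4 genes were at least 1.5-fold higher in astragalus than in cisplatin (9.37% of all genes) and than in control (14.4%). Trend-subtracted, Rrm1 alone of the 4 passed 1.5-fold against cisplatin (log2 difference 0.65, 4.4% of all genes). Rrm2 alone passed it against control (0.60, 9.47% of all genes), and neither gene reached 2-fold. The median difference of the 4 genes was 0.86 against cisplatin and 0.89 against control, and 0.47 and 0.42 trend-subtracted.

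Genes of the MCM helicase came next as deposited. Mcm4 was at 11.08 in astragalus, 10.77 in electro-acupuncture, 10.14 in cisplatin and 10.10 in control. Mcm2 was at 9.53 in astragalus, 8.99 in electro-acupuncture, 8.69 in cisplatin and 8.57 in control. Mcm6 was at 12.41 in astragalus, 12.16 in electro-acupuncture, 11.55 in cisplatin and 11.84 in control. Astragalus and electro-acupuncture were thus above both other arrays for these subunits, and Mcm6 differed from Mcm2 and Mcm4 in that cisplatin lay below control, by 0.29. Mcm3 had a pattern like that of Mcm2, with 1.75-fold in astragalus over cisplatin. Mcm5, a subunit of the same ring, spanned 0.30 over the 4 arrays and was 1.22-fold higher in astragalus than in cisplatin, a direction that turns trend-subtracted (-0.04). The 5 MCM genes measured had medians of 0.84 for astragalus and 0.33 for electro-acupuncture against cisplatin, and 0.45 and 0.27 trend-subtracted.

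Loading factors varied less. Orc2, a subunit of the origin recognition complex, was at 9.66 in astragalus, 9.14 in electro-acupuncture, 8.86 in cisplatin and 8.83 in control. Cdt1, which brings the MCM ring to origins, was at 7.34, 6.87, 6.86 and 6.62 on these arrays in the same order, and its control value was the lowest. Cdc6, the ATPase that works with Cdt1, was at 10.44 (astragalus), 10.25 (electro-acupuncture), 9.80 (cisplatin) and 9.87 (control), so here electro-acupuncture lay nearer astragalus than cisplatin. Orc1 was lower in cisplatin than in control by 0.35, and Orc6 was equal on those 2 arrays. Of the 5 genes, all were higher in astragalus than in cisplatin as deposited, with a median of 0.58 (0.40 trend-subtracted, when Orc6 was at -0.05).

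Helicase activation genes did not share 1 order of the arrays. Gins4 was at 10.36 in astragalus, 9.98 in electro-acupuncture, 9.74 in cisplatin and 9.46 in control, and Gins1 was at 8.51, 8.35, 8.01 and 7.83 on the same arrays in that order. Both were lowest in control. Their partner Gins3 was at 7.52 in astragalus, 7.07 in electro-acupuncture, 7.28 in cisplatin and 7.53 in control, with electro-acupuncture lowest. Cdc45, which binds GINS and the MCM ring, was at 10.55 (astragalus), 10.24 (electro-acupuncture), 10.39 (cisplatin) and 10.49 (control), a span of 0.31. The GINS complex holds 1 copy of each subunit, and the difference of electro-acupuncture from control was 0.52 for Gins1 and Gins4, 0.18 for Gins2 and -0.46 for Gins3. The sign of each of these 4 was the same with quantile normalization and trend-subtracted. All 6 genes of helicase activation were higher in astragalus than in cisplatin, with a median of 0.36 (0.23 trend-subtracted, when Cdc45 turned to -0.21).

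Of the sliding clamp and its loader, Pcna, the clamp that holds polymerases on DNA, was at 16.24 in astragalus, 15.94 in electro-acupuncture, 15.48 in cisplatin and 15.51 in control. Rfc4, a loader subunit, was at 9.43, 9.11, 8.75 and 8.90 on the same arrays. Rfc2 was at 7.60 (astragalus), 7.14 (electro-acupuncture), 7.27 (cisplatin) and 7.27 (control), and Rfc5 at 7.92, 7.57, 7.52 and 7.46 in the same order. The difference of electro-acupuncture from cisplatin was 0.36 for Rfc4, 0.05 for Rfc5 and -0.13 for Rfc2, and none of these values has a replicate to be set against. Rfc3 was the only one of the 43 members above the floor with its highest level on the electro-acupuncture array, at 7.49, while it was at 7.40 in astragalus (21.8% of all genes were highest with electro-acupuncture). All 6 genes were higher in astragalus than in cisplatin (median 0.38, and 0.25 trend-subtracted). As deposited, 2 of them, Pcna and Rfc4, were at least 1.5-fold higher (9.37% of all genes). Trend-subtracted they were at 0.38 and 0.41, short of 1.5-fold.

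Subunits of RPA, the single-strand binding complex, also differed from each other. Rpa2 was at 7.96 in astragalus, 7.28 in electro-acupuncture, 7.11 in cisplatin and 7.12 in control, with astragalus alone standing off. Rpa1, the large subunit, was at 8.63, 8.16, 8.05 and 8.0 on the arrays in that order. Rpa3 was at 8.57 (astragalus), 8.71 (electro-acupuncture), 8.57 (cisplatin) and 8.87 (control), so that control was highest. The difference of astragalus from control was 0.84 for Rpa2, 0.63 for Rpa1 and -0.30 for Rpa3, and each sign was the same with quantile normalization and trend-subtracted.

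Among polymerase and primase genes, those of primase and of some accessory subunits were higher in astragalus, while several others were not. Prim1, the catalytic primase subunit, was at 10.91 in astragalus, 10.64 in electro-acupuncture, 10.16 in cisplatin and 10.39 in control. Prim2, its partner, was at 9.34, 8.69, 8.71 and 8.72 on the same arrays, with astragalus alone higher. Pold2, an accessory subunit of polymerase delta, was at 7.61 (astragalus), 7.54 (electro-acupuncture), 7.30 (cisplatin) and 7.04 (control). Pola1, the catalytic subunit of polymerase alpha, was at 10.72 in astragalus, 10.53 in electro-acupuncture, 10.44 in cisplatin and 10.84 in control, with control highest. Pold1 and Pola2 had their highest level on the cisplatin array, at 7.31 against 7.28 in control for Pold1 and at 8.58 against 8.32 in control for Pola2. For Pold3 control was highest, at 9.92. The 9 genes had medians of 0.31 in astragalus and 0.09 in electro-acupuncture against cisplatin (0.19 and 0.00 trend-subtracted). As deposited, 2 of them, Prim1 and Prim2, were at least 1.5-fold higher in astragalus than in cisplatin (9.37% of all genes). Trend-subtracted they were at 0.38 and 0.36, short of 1.5-fold.

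Lig1, the ligase that joins Okazaki fragments, was at 11.29 in astragalus, 10.97 in electro-acupuncture, 10.65 in cisplatin and 10.69 in control. Of the G1/S regulators, Uhrf1, which brings the maintenance methyltransferase to new DNA, was at 9.44, 9.11, 8.63 and 8.96 on these arrays in the same order. Ccne1, a cyclin that activates Cdk2 before S phase, was at 10.25 (astragalus), 9.97 (electro-acupuncture), 9.80 (cisplatin) and 9.78 (control). Its relative Ccne2 spanned 0.20 and was at 10.55, 10.49, 10.35 and 10.49 on the arrays in that order. E2f1, a founding factor of the E2F family, was at 7.22 in astragalus, 7.21 in electro-acupuncture, 7.14 in cisplatin and 7.36 in control, a span of 0.22 with control highest. The 4 regulators had a median of 0.26 in astragalus against control, which turned to -0.06 trend-subtracted.

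Lists of related genes were set beside the members, and the same arrays enter every comparison. Among 17 other origin and fork factors above the floor, 4 were at least 1.5-fold higher in astragalus than in cisplatin (9.37% of all genes). None was 1.5-fold lower (5.01% of all genes), and the median of these factors was 0.28 (0.06 trend-subtracted). They included Gmnn, geminin, the inhibitor of Cdt1, at 9.08 in astragalus, 8.85 in electro-acupuncture, 8.10 in cisplatin and 8.68 in control. Tipin, a fork protection factor, was at 12.71, 12.04, 11.98 and 11.67 on these arrays in the same order, and Wdhd1, which links helicase and polymerase alpha, at 10.49, 10.13, 9.78 and 10.05. Of 12 other polymerase and strand maturation genes none passed 1.5-fold in any of the 6 comparisons, against the shares of all genes given above for each. Those with the largest ranges were Atad5, an unloader of the clamp (10.04 in astragalus, 9.78 in electro-acupuncture, 9.49 in cisplatin, 9.94 in control), and Top1, a topoisomerase (12.79, 12.65, 12.46 and 12.29 in that order).

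Among other nucleotide genes the median level was 8.07 in astragalus, 7.99 in electro-acupuncture, 7.86 in cisplatin and 7.33 in control, the lowest. Of 19 above the floor, 10 were at least 1.5-fold higher in astragalus than in control, 8 in electro-acupuncture and 3 in cisplatin, with medians of 0.67, 0.43 and 0.16, and 0.41, 0.42 and 0.16 trend-subtracted. Umps, of pyrimidine synthesis, was at 8.43 in astragalus, 8.14 in electro-acupuncture, 7.67 in cisplatin and 7.03 in control. Nme1, a nucleoside diphosphate kinase, was at 7.81, 7.76, 7.47 and 6.60 on the arrays in that order, and Nme2 is a close copy, so the split of signal between them is uncertain. Shmt2, the mitochondrial enzyme that feeds one-carbon units, was at 7.85 (astragalus), 7.56 (electro-acupuncture), 7.50 (cisplatin) and 6.66 (control). All 3 treated arrays were above control for Umps, Nme1 and Shmt2. Other genes of the list, chosen after their values were seen, lay below control on all treated arrays: Tk2 was at 6.70, 6.70 and 7.03 against 7.21 in control, Rrm2b at 6.97, 6.82 and 6.68 against 7.10, and Samhd1 at 12.15, 11.75 and 11.93 against 12.26. The share of all genes at least 1.5-fold higher than control was 14.4%, 11.2% and 7.09% on the 3 arrays.

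Chromatin assembly genes had a median of 0.34 in astragalus against cisplatin (0.03 trend-subtracted), with 1 of 10 at least 1.5-fold higher, near the 9.37% of all genes. The histone chaperone Nasp was at 11.14 in astragalus, 10.95 in electro-acupuncture, 10.60 in cisplatin and 10.30 in control, Asf1a, another chaperone, at 11.98, 11.47, 11.33 and 11.68, and Dnmt1, the maintenance methyltransferase, at 11.98, 11.45, 11.67 and 11.70. Of 12 E2F and pocket protein genes 4 were at least 1.5-fold higher in astragalus than in cisplatin (9.37% of all genes), with a median of 0.38 (0.21 trend-subtracted). Tfdp2, a partner of E2F factors, was at 11.83 in astragalus, 10.95 in electro-acupuncture, 10.77 in cisplatin and 11.42 in control. Rb1, the retinoblastoma protein gene that restrains E2F, was at 13.79, 13.37, 13.08 and 13.80 on these arrays, and E2f8, a repressor of the family, at 12.03, 11.42, 11.37 and 11.47. In cisplatin against control, Tfdp2 and Rb1 were 1.57-fold and 1.65-fold lower, the 2 genes of that list past 1.5-fold (4.27% of all genes were at least 1.5-fold lower).

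Of the G1 cyclins, kinases and inhibitors, 12 were above the floor. In astragalus against cisplatin 1 was at least 1.5-fold higher (9.37% of all genes) and 1 at least 1.5-fold lower (5.01% of all genes). The median was 0.18, which turned to -0.11 trend-subtracted and -0.02 with quantile normalization. Cdkn1a, the cyclin-dependent kinase inhibitor p21, was at 8.03 in astragalus, 8.27 in electro-acupuncture, 8.76 in cisplatin and 6.64 in control, so all treated arrays were above control. Cdkn1b, the inhibitor p27, was at 9.74, 8.99, 9.56 and 10.32 on the arrays in that order and lay below control on all treated arrays. Ccna2, the S phase cyclin, was at 14.03 in astragalus, 13.40 in electro-acupuncture, 13.05 in cisplatin and 13.24 in control, an order shared with Rrm1 and Lig1. In the replication stress checkpoint list, 2 of 8 genes were at least 1.5-fold higher in astragalus than in cisplatin (9.37% of all genes). The median was 0.41 (0.29 trend-subtracted). Chek2, a checkpoint kinase, was at 9.37, 8.74, 8.71 and 8.77, Hus1, of a checkpoint clamp loaded at damaged DNA, at 7.95, 7.72, 7.47 and 7.34, and Wee1, the kinase that holds Cdk1 inactive, at 8.96, 8.55, 8.37 and 8.75, each in the order astragalus, electro-acupuncture, cisplatin, control.

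**Figure D4:**
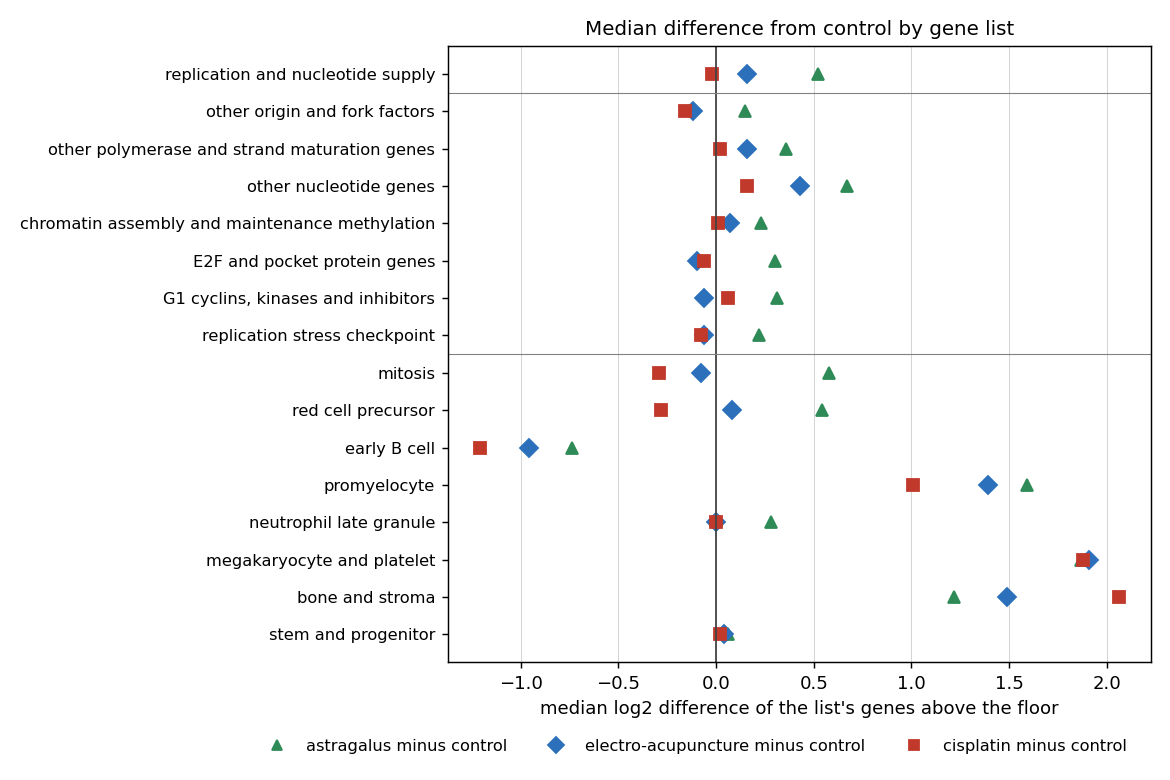
Median log2 difference from the control array (x axis) of the members, 7 related lists and 8 marker lists (y axis) in astragalus, electro-acupuncture and cisplatin, over the genes of each list above the floor. Members lie at 0.52, 0.16 and -0.02, mitosis genes at 0.58, -0.08 and -0.29, and early B cell genes at -0.74, -0.96 and -1.21.

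Marrow is the labelled tissue, and most measured markers of its cells were above the floor, which 17195 of 30701 named genes passed. There were 10 of 10 for neutrophil granules, 14 of 14 for red cell precursors, 7 of 7 for promyelocytes and 9 of 9 for platelets. Early B cells had 12 of 13, bone and stroma 9 of 10, and stem and progenitor cells 7 of 10. Against cisplatin, those of dividing cells and red cell precursors were, like the members, higher in astragalus. This was not particular to them. Medians of the same difference were 0.73 for promyelocyte, 0.43 for late neutrophil granule and 0.40 for early B cell genes (0.34, 0.16 and 0.29 trend-subtracted). Platelet genes had -0.01, stem and progenitor genes 0.06 and bone and stroma genes -1.13 (-0.38, 0.00 and -1.29 trend-subtracted). Since RNA of whole marrow was measured, fewer cells of a type and less RNA per cell cannot be told apart. All 15 mitosis genes above the floor were at least 1.5-fold higher in astragalus than in cisplatin (9.37% of all genes). The median was 0.94 (0.59 trend-subtracted), with Ube2c at 16.34 against 14.95 and Kif11 at 13.39 against 12.09. In cisplatin against control 12 of the 15 were lower (46.9% of all genes), 4 by at least 1.5-fold (4.27% of all genes). The median of the mitosis genes was -0.29, while the members had -0.02. In electro-acupuncture against control the mitosis genes had -0.08, and the members 0.16. Of 14 red cell precursor genes, 10 were at least 1.5-fold higher in astragalus than in cisplatin (9.37% of all genes). The median was 0.83 (0.49 trend-subtracted), with Rhag at 15.04 against 13.72 and Ermap at 15.04 against 13.81. In astragalus against control their median was 0.54 (0.13 trend-subtracted), and Kel, named after its values were seen, was lower, at 13.93 against 14.10. The summed signal of the red cell precursor list on the log2 scale was 18.72 in astragalus, 18.22 in electro-acupuncture, 17.89 in cisplatin and 18.15 in control.

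Early B cell genes had medians against control of -0.74 in astragalus, -0.96 in electro-acupuncture and -1.21 in cisplatin over 12 genes (-1.01, -0.98 and -1.22 trend-subtracted, so that the order of astragalus and electro-acupuncture turned), with Il7r at 9.47, 9.05 and 8.76 against 10.81 in control and Sox4 at 8.56, 8.54 and 8.07 against 9.54. Not every gene of the list was below control: Dntt was at 6.75, 7.43 and 6.34 against 6.51, and Rag2 at 5.53, 5.93 and 5.13 against 5.66, both named after their values were seen. Promyelocyte genes had medians of 1.59, 1.39 and 1.01 over 7 genes (1.16, 1.31 and 1.01 trend-subtracted, and 1.35, 1.45 and 0.95 with quantile normalization, so that the order of astragalus and electro-acupuncture turned under both), with Mpo at 13.75, 13.25 and 12.80 against 11.70 in control and Ctsg at 10.72, 10.57 and 10.02 against 8.71. Not every promyelocyte gene had that order: Cebpe was at 6.61, 6.57 and 6.97 against 6.61, and Igfbp4 at 8.59, 8.75 and 8.80 against 7.36. Both were highest in cisplatin and were named after their values were seen. The summed log2 signals were 11.92, 11.72 and 11.45 against 12.84 in control for early B cell genes and 14.36, 13.97 and 13.52 against 12.47 for promyelocyte genes. Late granule genes of neutrophils had medians of 0.28, 0.00 and 0.00 over 10 genes (-0.27, -0.29 and -0.21 trend-subtracted), 2 of them at the ceiling of 19.93 on every array, with Lcn2 at 11.59, 10.93 and 10.55 against 10.12 and Mmp8 at 14.21, 13.31 and 13.15 against 12.99. Platelet genes had 1.87, 1.91 and 1.88 over 9 genes (1.41, 1.65 and 1.75 trend-subtracted), with Thbs1 at 12.53, 12.80 and 12.70 against 9.61 and Ppbp at 18.96, 19.04 and 18.63 against 16.06. Bone and stroma genes had 1.22, 1.49 and 2.06 over 9 genes (1.07, 1.43 and 2.04 trend-subtracted), with the near copies Bglap2 at 12.23, 10.53 and 14.09 against 8.47 and Bglap at 11.95, 10.45 and 13.68 against 8.96. The list did not share 1 order: Cxcl12 was at 12.95, 13.28 and 12.46 against 10.91, Lepr at 8.19, 8.49 and 8.13 against 6.97, and Sp7 at 5.78, 5.67 and 5.71 against 5.84, all named after their values were seen. Stem and progenitor genes had 0.06, 0.04 and 0.02 over 7 genes (-0.02, -0.02 and 0.02 trend-subtracted), with Myb at 10.59, 10.24 and 10.34 against 11.66 and Cd48 at 6.85, 7.17 and 6.56 against 6.79. The part of these cell types in the members' levels was not tested.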

How the data were processed

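The deposited values are log2 levels, 1 per transcript cluster and array, made with Affymetrix Expression Console per the submitters' processing notes. No source used here states its version, summary method or normalization. The scale follows from the range of values, 2.70 at the bottom and a ceiling of 19.93 that no member reached. Of 65956 clusters, 32750 are in the platform's gene table, 31258 with 1 gene after symbols were updated through RefSeq (GRCm38.p6) and 1492 with several, from which no gene was named. Genes with several clusters took the brightest (every measured member had 1), and 17195 of 30701 genes had a mean at or above the floor of 5.24. Comparisons are log2 differences of 1 array from another, counted at 1.5-fold, with no test. The level-dependent trend is a lowess curve (fraction 0.3, statsmodels 0.14.6, Python 3.11.15). Alternatives were quantile normalization, that trend subtracted, no filter, a 75th percentile filter, the mean of a gene's clusters and 2-fold. The steps were tested on simulated data. Levels were printed for up to 3 members per role with the largest range, the member with the highest mean in each role and members past 2-fold, and for 3 or 2 genes per related or marker list. Members and lists were chosen with earlier results of these data known.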

Additional observations from a re-analysis of the deposited data

How the results depend on the processing

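Over all members, the medians of cisplatin minus control, electro-acupuncture minus control and electro-acupuncture minus cisplatin moved by less than 0.1 under every alternative, and none of the 6 comparisons' medians changed sign. Medians of single roles and lists did change sign, as given beside them. The astragalus medians over all members were lower under both other scalings: with quantile normalization the medians were 0.32 (minus control), 0.36 (minus cisplatin) and 0.10 (minus electro-acupuncture), and trend-subtracted 0.19, 0.28 and 0.06. Members at least 1.5-fold higher then numbered 9, 9 and 0 with quantile normalization and 5, 2 and 0 trend-subtracted. The trend-subtracted shares of all genes were 9.47%, 4.4% and 2.34%. Shares of all genes were not computed with quantile normalization, so those counts cannot be set against them. At 2-fold the members numbered 2, 1 and 0 as deposited, against 6.13% and 2% of all genes for the first 2. For electro-acupuncture minus control and minus cisplatin the counts were 0 and 0 trend-subtracted and 0 and 0 at 2-fold. The 2-fold counts are lower by construction, and the cause of the other shifts was not tested. Counts of members 1.5-fold lower were 0 throughout. No filter, the 75th percentile filter and the mean of clusters kept all 6 medians over the members within 0.1 and their counts within 1.5 times. No paired analysis was possible because each group has 1 array. Without replicates, a member's difference cannot be set against any spread between samples.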

Other observations

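Most of the purine synthesis genes named here were lower in control than on every treated array, as were 32.5% of all genes compared. These genes were chosen after their values were seen, and the 3 differences share the control array. Paics, which carries out middle steps of the pathway, was at 9.85 in astragalus, 9.77 in electro-acupuncture, 8.98 in cisplatin and 8.71 in control. Ppat, the enzyme of the committed step, was at 9.57, 9.34, 9.14 and 8.86 on the arrays in the same order. Gart was at 8.01 in astragalus, 7.99 in electro-acupuncture, 7.90 in cisplatin and 7.33 in control, and Atic, which completes the ring, at 8.32, 8.26, 8.20 and 7.65. For Gart and Atic the 3 treated arrays lay within 0.12 of each other, while for Paics cisplatin lay between control and the other treated arrays. Impdh1, which acts toward guanine nucleotides, was at 5.69, 5.81, 5.80 and 5.71 on the arrays in that order, so its astragalus level was not above control. Mthfd1, of the folate pathway that feeds this synthesis, was at 9.07, 9.02, 8.51 and 7.98 in the same order.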
